A study of Mus musculus with 22 samples.

Results

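The 10 circadian clock genes Per1, Per2, Per3, Dbp, Tef, Hlf, Nr1d1, Nr1d2, Ciart and Arntl were taken by gene symbol from the 29367 genes of the count table, and all 10 were found. The study isolated mRNA bound to HA-tagged ribosomes of astrocytes from the optic nerve head (ONH), where retinal ganglion cell axons leave the eye, and from the optic nerve proper (ONP), the myelinated nerve behind it. Each library was made from the tissue of 4 mice, 2 male and 2 female. The question asked here was whether these genes differed between the regions and days, and whether ONH and ONP libraries of the same number moved together.

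The groups were ONH at 7 days (4 libraries), ONH at 30 days (7 libraries), ONP at 7 days (4 libraries) and ONP at 30 days (7 libraries), 22 in all. Every mouse was 3-4 months old, carried the Rpl22 HA allele and the (GFAP-Cre) 73.12Mvs/J transgene, and had received microbeads in 1 eye to raise its pressure. The labels call the genotype WT. The days count from that injection, and uninjured mice were not analysed here. The GFAP promoter drives Cre in these mice, so a ribosome is tagged in any cell that has expressed the transgene or descends from such a cell. Mice were housed under 12 h of light and 12 h of dark. Neither the labels nor the methods give the hour at which tissue was collected, so a difference in hour between groups cannot be told apart from a difference in day or region. The study states that both regions were taken from each mouse, but neither it nor the labels say that equal numbers mark the same pool of mice. Below, a pool at 30 days means the ONH and ONP libraries that carry the same number. At 7 days the number is the one the count table gives a library, and it pairs nothing.

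The circadian clock is a loop of transcription factors that runs in most cells, astrocytes included. ARNTL (also called BMAL1) pairs with CLOCK and binds E-boxes to drive Per1, Per2, Per3, Dbp, Nr1d1, Nr1d2 and Ciart, whose products feed back on the loop. PER proteins and CIART hold ARNTL and CLOCK in check. NR1D1 and NR1D2 (REV-ERB) repress Arntl through ROR elements. DBP, TEF and HLF, a family of bZIP factors, activate genes through D-boxes. Arntl mRNA therefore peaks at nearly the opposite time of day from Dbp and Nr1d1, and a shift of phase is known to move them in opposite directions. Per1 and Per2 also respond to glucocorticoids and to acute signals through cAMP response elements.

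Stretches of promoter that hold these elements are shown as a description, and no value below rests on them. RefSeq windows from 250 bases before to 50 bases after a gene's start (GRCm38.p6) were available for 9 of the 10 members. Both strands were searched for the E-box CACGTG, the D-box letters TTATGTAA and TTACGTAA, the ROR core element AGGTCA and the cAMP response element TGACGTCA. Capitals mark a match, and bases that lie in an annotated exon of the gene are left off. Ciart lies on chr3:95882252-95882478, Per1 on chr11:69098699-69098947, Per3 on chr4:151044666-151044915, Tef on chr15:81811164-81811413 and Hlf on chr11:90390918-90391167, where Per1 and Tef are on the plus strand and the others on the minus strand.
Ciart: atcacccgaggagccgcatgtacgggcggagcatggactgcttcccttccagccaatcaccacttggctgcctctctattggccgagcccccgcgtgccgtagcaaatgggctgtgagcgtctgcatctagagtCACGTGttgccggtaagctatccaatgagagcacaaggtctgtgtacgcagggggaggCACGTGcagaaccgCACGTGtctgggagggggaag
Per1: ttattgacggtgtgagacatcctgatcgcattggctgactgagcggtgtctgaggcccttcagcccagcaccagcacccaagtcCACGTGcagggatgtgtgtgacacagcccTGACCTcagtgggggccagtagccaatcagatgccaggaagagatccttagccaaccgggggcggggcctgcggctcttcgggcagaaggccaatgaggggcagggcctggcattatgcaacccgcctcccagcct
Per3: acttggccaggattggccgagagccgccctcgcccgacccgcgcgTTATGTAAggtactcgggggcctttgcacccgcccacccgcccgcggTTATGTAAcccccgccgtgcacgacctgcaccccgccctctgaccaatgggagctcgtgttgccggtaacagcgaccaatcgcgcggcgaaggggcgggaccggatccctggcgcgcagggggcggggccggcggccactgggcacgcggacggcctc
Tef: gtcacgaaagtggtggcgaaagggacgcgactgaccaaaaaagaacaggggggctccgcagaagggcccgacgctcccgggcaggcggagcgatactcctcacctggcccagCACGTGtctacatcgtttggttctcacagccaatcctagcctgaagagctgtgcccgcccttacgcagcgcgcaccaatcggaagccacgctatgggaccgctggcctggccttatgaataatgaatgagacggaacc
Hlf: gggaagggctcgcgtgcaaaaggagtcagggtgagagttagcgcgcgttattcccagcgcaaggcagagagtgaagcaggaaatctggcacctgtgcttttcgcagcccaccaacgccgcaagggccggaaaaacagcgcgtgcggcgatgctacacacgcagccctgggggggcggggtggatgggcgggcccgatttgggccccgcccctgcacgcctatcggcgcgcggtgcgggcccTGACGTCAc
The Ciart stretch holds 3 E-boxes, and those of Per1 and Tef hold 1 each. Per1 also has 1 ROR core element, read on the minus strand. Per3 has 2 D-boxes, and Hlf has 1 cAMP response element that ends close to the start. Nr1d2 holds 1 ROR core element, and the second window of Arntl has 1 downstream of the start. No match was found in the windows of Dbp and Nr1d1. Of 32851 windows of 300 bases, 7.15% hold the E-box, 1.06% a D-box, 16.3% the ROR core element and 1.79% the cAMP response element. A match is a description of the letters and does not show that a factor binds there.

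The libraries held 16292489 to 33307092 counts, so 3 counts corresponded to 0.0897 to 0.191 CPM, the TMM-scaled counts relative to library size. The 8 astrocyte markers summed to 14382 to 33227 CPM over the 22 libraries, and none was at 0 in any group. RNA of other cells was present. The 6 oligodendrocyte markers summed to 13143 to 40198 CPM in the ONH and 24874 to 104647 CPM in the ONP. The 8 photoreceptor markers summed to 78.2 to 4821 CPM in the ONH and 1.84 to 106 CPM in the ONP, and the 8 markers of pigment epithelium and melanocytes to 290 to 1613 CPM and 78.2 to 144 CPM. Microglial markers (6) summed to 71.8 to 1767 CPM, those of endothelial and mural cells (6) to 28.6 to 280 CPM, of neurons (6) to 13 to 137 CPM, of fibroblasts (6) to 148 to 1609 CPM, of surface epithelium (6) to 0 to 42.2 CPM and of the pituitary (6) to 0.916 to 224 CPM. These are bulk libraries of immunoprecipitated RNA, so the sums are not a measure of tissue composition. Fewer cells of a type, less RNA per cell, less tagging and less carry-over of untagged RNA cannot be told apart. The study reported that HA overlapped SOX9 and did not overlap IBA1, OLIG2 or NG2. By RT-qPCR it found the precipitate of the ONH at 7 days enriched for astrocyte markers alone.

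All 10 members were detected in all 4 groups, and every one passed the filter on low counts in each comparison. Per kilobase of exon, Nr1d1 and Dbp stood highest in every group. Nr1d1 had 60.5 ± 21.7 CPM per kb (SD, n = 4) in the ONH at 7 days, 36.0 ± 15.6 (n = 7) in the ONH at 30 days, 39.5 ± 3.59 (n = 4) in the ONP at 7 days and 27.6 ± 6.59 (n = 7) in the ONP at 30 days. Dbp had 54.2 ± 21.9, 42.0 ± 21.6, 21.6 ± 5.68 and 21.1 ± 9.06 CPM per kb in the same order. Within the ONH these neighbours differed by less than their SD. Tef (11.1 to 15 CPM per kb over the group means) and Nr1d2 (9.12 to 12.9) followed, then Ciart with 3.38 to 10.2. Arntl, the activator, had 3.03 to 3.26 CPM per kb, which was the narrowest range of group means among the members. Hlf (1.28 to 4.46), Per3 (0.958 to 2.29), Per1 (0.702 to 1.97) and Per2 (0.311 to 1.03) lay below Arntl in every group, except Hlf in the ONH at 7 days (4.46 ± 2.73 against 3.03 ± 1.87 CPM per kb, n = 4), a difference within their SD. The plot of levels by library shows these values as CPM without the division by length.

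**Figure D1:**
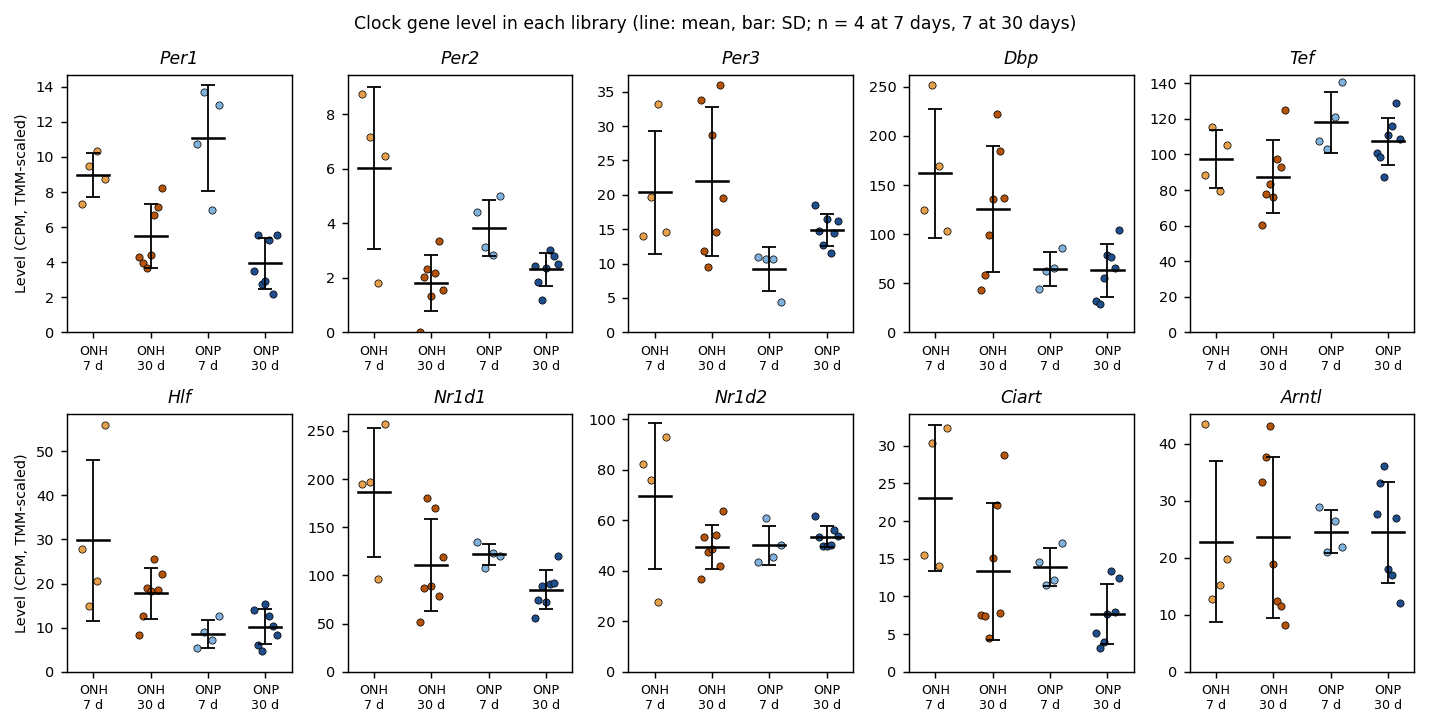
Level of each of the 10 clock genes (y axis, CPM after TMM scaling) in every library of the 4 groups (x axis), with a point for each library, a line at the mean and a bar of 1 SD. Per1 in the ONP lies lower at 30 days (at most 5.55 CPM) than at 7 days (at least 6.97 CPM), Dbp lies higher in the ONH than in the ONP at 7 days, and Arntl spreads over 8.20 to 43.0 CPM in the ONH at 30 days.

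In the ONP, Per1 was lower at 30 than at 7 days. Its level was 10.7, 13.7, 6.97 and 13 CPM in the 4 libraries at 7 days. At 30 days it ranged from 2.17 to 5.55 CPM with a median of 3.50 CPM (n = 7). The groups did not overlap, which was so for 12% of the genes tested. The fold was 2.86, with a log2 fold change (log2FC) of -1.52 (SE 0.29, edgeR adjusted p = 0.00556). The call held in each of the 11 fits that left out 1 library, and the adjusted p over the alternatives was 4.06e-05 to 0.00748. Per1 encodes a period protein of the repressor arm of the loop.

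Nr1d1, the REV-ERB repressor, was the other member called in the ONP between the days. It had 135, 108, 124 and 120 CPM at 7 days and 56.0 to 120 CPM (median 89.4, n = 7) at 30 days, and the groups overlapped. Its log2FC was -0.55 (SE 0.16, edgeR adjusted p = 0.0357). This call was lost in 7 of the 11 fits that left out a library, where the adjusted p of Nr1d1 rose to at most 0.113, and with all 4 groups in a single fit (0.264), with scaling by library size only (0.0716) and with no filter on low counts (0.0561). Both calls in the ONP were lower at 30 days, so 2 of 10 members were called against 17% of all genes tested, with 9.21% called lower and 7.8% called higher.

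Per3 was the only member whose ONP groups did not overlap in the upward direction. It had 11, 10.7, 10.7 and 4.46 CPM at 7 days and 11.6 to 18.5 CPM (median 14.8, n = 7) at 30 days. The log2FC was 0.67 (SE 0.24), and it did not pass with edgeR (adjusted p = 0.0676) but did with DESeq2 (adjusted p = 0.0242), which called 19.5% of genes. Ciart had 14.6, 11.5, 12.2 and 17.1 CPM at 7 days and 3.09 to 13.3 CPM at 30 days (log2FC -0.89, SE 0.36, edgeR adjusted p = 0.105). Per2 had 4.41, 3.12, 2.83 and 4.98 CPM at 7 days and 1.17 to 3.02 CPM at 30 days (log2FC -0.76, SE 0.29, edgeR adjusted p = 0.0907). Arntl had a log2FC of -0.04 (SE 0.26), Dbp of -0.06 (SE 0.32), Nr1d2 of 0.07 (SE 0.11), Tef of -0.17 (SE 0.12) and Hlf of 0.23 (SE 0.34), with edgeR adjusted p from 0.343 to 0.941. The median log2FC over the 10 members was -0.12, and over all genes tested it was -0.01. The oligodendrocyte markers were lower at 30 days in the same libraries (5 of 6 called, summed level 24874 to 81701 CPM against 79798 to 104647 CPM at 7 days), as were 3 of 6 endothelial and mural markers, and their part in these values was not tested.

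In the ONH no member passed between 30 and 7 days. No member kept its groups apart, which 2.28% of genes did. None of 10 was called against 0% of the 15668 genes tested with edgeR, where 2181 genes had an unadjusted p under 0.05. DESeq2 called 448 genes (2.57%), and none was a member. The fitted values were lower at 30 days for 8 of 10 members, with a median log2FC of -0.63 against -0.02 over all genes tested. Unadjusted p-values under 0.05 were found for 4 members with edgeR, namely Per1, Per2, Nr1d1 and Hlf.

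Per1 in the ONH had 7.33, 9.48, 10.3 and 8.75 CPM at 7 days and 3.66 to 8.25 CPM (median 4.40, n = 7) at 30 days (log2FC -0.73, SE 0.29, edgeR adjusted p = 0.287). Per2 had 8.73, 7.15, 1.82 and 6.45 CPM at 7 days and 0 to 3.35 CPM at 30 days (log2FC -1.75, SE 0.73, edgeR adjusted p = 0.313). The low Per2 library at 7 days, library 5, thus lay inside the 30 day range. Nr1d1 had 195, 197, 96.0 and 257 CPM at 7 days and 51.8 to 180 CPM at 30 days (log2FC -0.77, SE 0.33, edgeR adjusted p = 0.324). Hlf had 27.7, 14.8, 20.6 and 56.0 CPM at 7 days and 8.36 to 25.5 CPM at 30 days (log2FC -0.77, SE 0.35, edgeR adjusted p = 0.352). Without library 6, which had the highest Hlf, the value was -0.27 (edgeR adjusted p = 0.806). That library also had the highest photoreceptor (4821 CPM), pigment (1613 CPM) and fibroblast (1609 CPM) marker sums of its group. Its oligodendrocyte (35038 CPM) and microglial (856 CPM) marker sums were the highest of the group as well. The part of these cells in Hlf was not tested.

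Nr1d2, the second REV-ERB gene, had 82.1, 75.8, 27.5 and 93.0 CPM in the ONH at 7 days and 36.7 to 63.7 CPM (median 48.4, n = 7) at 30 days. Library 5, at 27.5 CPM, was below every 30 day library while the other 3 were above every one. The log2FC of Nr1d2 was -0.52 (SE 0.26, edgeR adjusted p = 0.390), and without library 5 it was -0.79 (adjusted p = 0.0493), in a fit that called 1.14% of all genes. That library also had the lowest Nr1d1 and the highest Per3 (33.2 CPM) of its group. Ciart had a log2FC of -0.82 (SE 0.46), Dbp of -0.40 (SE 0.38), Tef of -0.18 (SE 0.19), Per3 of 0.08 (SE 0.38) and Arntl of 0.03 (SE 0.48), with edgeR adjusted p from 0.434 to 0.985. The signs of Per3 and Arntl changed under some alternatives.

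The difference between the regions in the 30 vs 7 day change was tested in a fit of all 4 groups. None of 10 members was called, against 0.573% of the 16748 genes tested. No member had an unadjusted p under 0.05 with edgeR. DESeq2 called none either, against 2.28% of genes, and 2 members had such a p with it. The smallest unadjusted p was that of Nr1d2 (0.0584), whose log2FC of ONP minus ONH was 0.59 (SE 0.30, edgeR adjusted p = 0.422). Without ONH library 5 at 7 days this value was 0.86 (edgeR adjusted p = 0.0260), where 1.88% of all genes were called. The Per1 difference was -0.78 (SE 0.42, edgeR adjusted p = 0.456), so the lower Per1 at 30 days was not shown to differ between the ONP and ONH.

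Between the regions, Dbp and Hlf were higher in the ONH than in the ONP at both days. At 7 days Dbp had 124, 251, 169 and 103 CPM in the ONH and 44.3, 62.2, 65.9 and 85.7 CPM in the ONP. The groups did not overlap, as for 21.7% of genes tested. Dbp was 2.55-fold higher in the ONH (log2FC 1.35, SE 0.29, edgeR adjusted p = 0.0125) and was called in all 8 fits that left out a library. Hlf had 27.7, 14.8, 20.6 and 56.0 CPM in the ONH and 5.27, 8.97, 7.22 and 12.7 CPM in the ONP, again without overlap. Hlf was 3.52-fold higher (log2FC 1.81, SE 0.43, edgeR adjusted p = 0.0185), and its call was lost without ONP library 1, 2 or 5 (adjusted p 0.0570 to 0.0638). These 2 of 10 members compare with 13.3% of all genes called, with 6.37% called higher and 6.9% called lower in the ONH. In the same libraries all 8 pigment epithelium and melanocyte markers and 5 of 7 tested photoreceptor markers were higher in the ONH, and 6 of 6 oligodendrocyte markers were lower, and their part in the Dbp and Hlf difference was not tested.

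Per3 also did not overlap at 7 days, with 14.1, 19.6, 33.2 and 14.6 CPM in the ONH against 11, 10.7, 10.7 and 4.46 CPM in the ONP. Its log2FC was 1.17 (SE 0.38), with an edgeR adjusted p of 0.0686 and a DESeq2 adjusted p of 0.0237, where DESeq2 called 18.3% of genes. Nr1d1 had a log2FC of 0.64 (SE 0.25, edgeR adjusted p = 0.126), Ciart of 0.76 (SE 0.32, 0.144), Per2 of 0.68 (SE 0.49, 0.394) and Nr1d2 of 0.50 (SE 0.32, 0.335). Without ONH library 5, Nr1d1 (log2FC 0.83, edgeR adjusted p = 0.00639) and Nr1d2 (log2FC 0.74, edgeR adjusted p = 0.0171) were called too, so 4 members passed where 12.8% of all genes did. That library had the lowest Nr1d1 and Nr1d2 of its group, so leaving it out raised both. Each was called in only this 1 of 8 such fits, with an edgeR adjusted p of up to 0.273 (Nr1d1) and 0.568 (Nr1d2) in the others. Tef, the bZIP factor related to Dbp and Hlf, had a log2FC of the opposite sign (-0.26, SE 0.17, edgeR adjusted p = 0.357), and so did Per1 (-0.29, SE 0.30) and Arntl (-0.09, SE 0.36). The median log2FC over the 10 members was 0.66, against 0.07 over all genes.

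At 30 days Dbp had 43.0 to 222 CPM (median 136, n = 7) in the ONH and 28.4 to 105 CPM (median 65.5, n = 7) in the ONP, and the groups overlapped, as they did for every member, while 16.4% of genes did not overlap. The fold was 1.99 (log2FC 0.99, SE 0.36, edgeR adjusted p = 0.0359). This call was lost in 9 of 14 fits that left out a library, with an adjusted p of at most 0.0887. Hlf had 8.36 to 25.5 CPM (median 18.6) in the ONH and 4.80 to 15.3 CPM (median 10.4) in the ONP (log2FC 0.80, SE 0.28, edgeR adjusted p = 0.0294). It lost its call in 6 of those 14 fits, where the adjusted p was at most 0.0644. These 2 of 10 members stood against 41.8% of all genes called between the regions and 21.8% called higher in the ONH.

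With the pool as a block, which compares ONH and ONP libraries of the same number, Dbp was higher in the ONH by a log2FC of 0.93 (edgeR adjusted p = 0.000453), and Ciart was called as well (log2FC 0.70, edgeR adjusted p = 0.0145). With Hlf, 3 of 10 members were called in that fit against 44.4% of all genes. Without the block, Ciart had a log2FC of 0.80 (SE 0.42, edgeR adjusted p = 0.141), with 4.47 to 28.8 CPM in the ONH and 3.09 to 13.3 CPM in the ONP. Dbp was higher in the ONH in 7 of 7 pools. Hlf was higher in 6 of 7 pools, all but pool 1, which had 8.36 CPM in the ONH and 14.0 CPM in the ONP. Ciart was higher in 6 of 7 pools, all but pool 6, which had 7.83 and 7.92 CPM.

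The remaining members did not pass between the regions at 30 days. Tef had a log2FC of -0.30 (SE 0.14, edgeR adjusted p = 0.0996), Per3 of 0.54 (SE 0.26, 0.108), Per1 of 0.47 (SE 0.27, 0.186), Nr1d1 of 0.39 (SE 0.25, 0.222), Nr1d2 of -0.12 (SE 0.12, 0.459), Per2 of -0.35 (SE 0.54, 0.640) and Arntl of -0.05 (SE 0.36, 0.920). The median over the 10 members was 0.43, against -0.01 over all genes. In the same libraries all 8 pigment epithelium and melanocyte markers and 7 of 7 tested photoreceptor markers were higher in the ONH, and 5 of 6 oligodendrocyte markers were lower, and their part in the Dbp and Hlf difference was not tested.

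**Figure D2:**
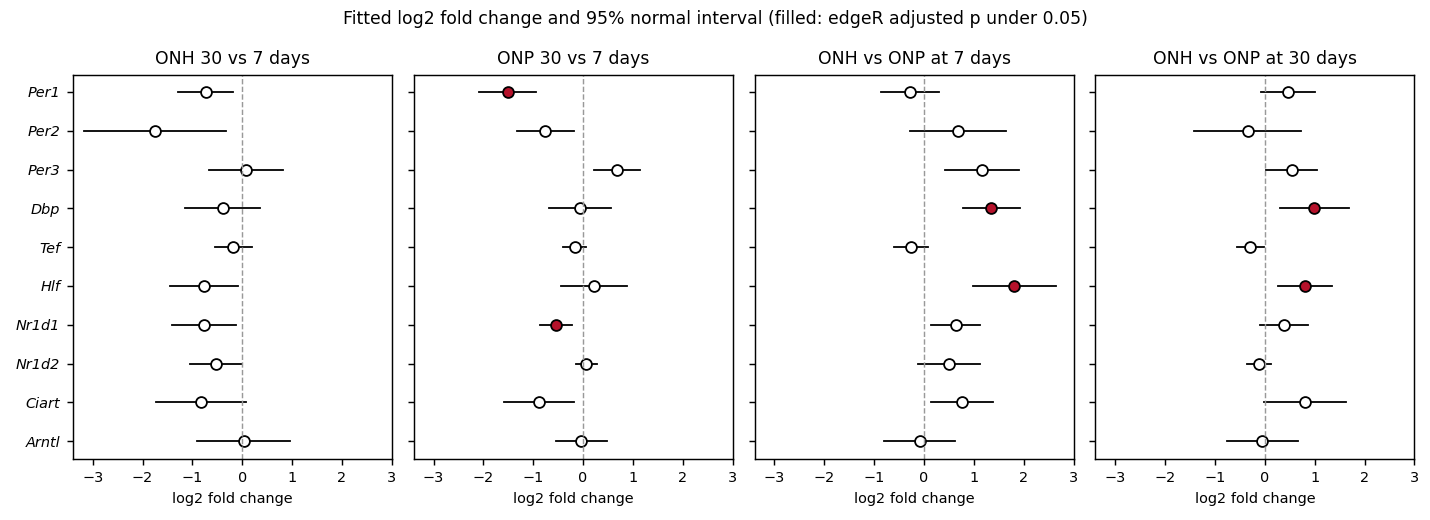
Fitted log2 fold change (x axis) of each clock gene (y axis) in the 4 comparisons between groups, with a 95% normal interval from the SE. Filled points passed an edgeR adjusted p of 0.05, which were Per1 and Nr1d1 in the ONP between the days and Dbp and Hlf between the regions at both days.

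Several members varied more between pools of 1 group than genes of like abundance did. In the ONH at 30 days the biological coefficient of variation (the edgeR estimate of spread beyond counting error) of Dbp was 0.438 against a trend of 0.240 at its abundance, that of Arntl 0.501 against 0.298, that of Ciart 0.543 against 0.350 and that of Nr1d1 0.364 against 0.240. Ranked by the ratio to the trend, these 4 lay between the 96.9 and 98.3 percentile of all genes. In the ONP at 30 days Dbp (96.4 percentile), Ciart (91.1) and Arntl (89.5) lay high as well, while Nr1d2 (8.90) lay low. In the ONP at 7 days Arntl (38.6), Ciart (36.3) and Nr1d1 (30.5) lay below the middle and Dbp (91.7) did not. These ranks are a description and carry no test.

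At 30 days the ONH and ONP libraries of the same number were compared over the 7 pools. For Pearson's r, only Arntl, Ciart and Dbp among the members had an unadjusted exact permutation p under 0.05. None of them passed the adjustment over all genes (exact permutation adjusted p 0.447 to 0.519). Over all genes, the deviations from the group means of same-numbered libraries correlated at 0.0746 to 0.494, and in 3 of 7 pools the own number gave the highest value, so the data do not settle whether the numbers mark the mice. Arntl in the ONH was 33.3, 37.6 and 43.0 CPM in pools 1, 2 and 3, and 18.8, 12.5, 11.5 and 8.20 CPM in pools 4, 5, 6 and 7. In the ONP it was 27.7, 33 and 36.1 CPM in pools 1, 2 and 3, and 18.1, 17.0, 27.0 and 12 CPM in the other 4. The same 3 pools were thus highest in both regions, and pool 7 was lowest in both. Pearson's r for Arntl over the 7 pools was 0.836 (exact permutation p = 0.0286) and Spearman's rho 0.893 (exact permutation p = 0.0123).

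Ciart, a repressor of ARNTL and CLOCK, ran the other way. In the ONH it was 28.8, 22.1 and 15.1 CPM in pools 7, 5 and 4, and 4.47 to 7.83 CPM in the other 4. In the ONP it was highest in pools 5 and 7 (13.3 and 12.5 CPM) and lowest in pools 2 and 3 (3.09 and 3.96 CPM). Pearson's r was 0.864 (exact permutation p = 0.0141) and rho 0.893 (exact permutation p = 0.0123). Dbp had r = 0.848 (exact permutation p = 0.0228) and rho = 0.679 (exact permutation p = 0.110). In pools 1 and 2 it had 43.0 and 58.4 CPM in the ONH and 32.1 and 28.4 CPM in the ONP, the lowest values of both regions. Without these 2 pools, which lay farthest from the median of the ONH, r for Dbp was 0.258, so its relation rested on them. The same step gave 0.619 for Arntl (without pools 3 and 7) and 0.613 for Ciart (without pools 5 and 7).

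The other members followed the pool less closely. Nr1d1 had r = 0.660 (exact permutation p = 0.105), Per3 0.647 (0.123), Tef 0.353 (0.448) and Per1 0.208 (0.644). Hlf had r = -0.10 (0.840), Per2 -0.13 (0.745) and Nr1d2 -0.61 (0.143). The median r of the 10 members was 0.50, and over all 15133 genes it was 0.178, with the 95th percentile at 0.807. An unadjusted exact p under 0.05 was reached by 3 of 10 members and by 8.66% of all genes (7.49% with a positive r). No gene passed the adjustment over all 15133, where the smallest adjusted p was 0.392. The adjusted p was 0.447 for Ciart, 0.495 for Dbp and 0.519 for Arntl.

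**Figure D3:**
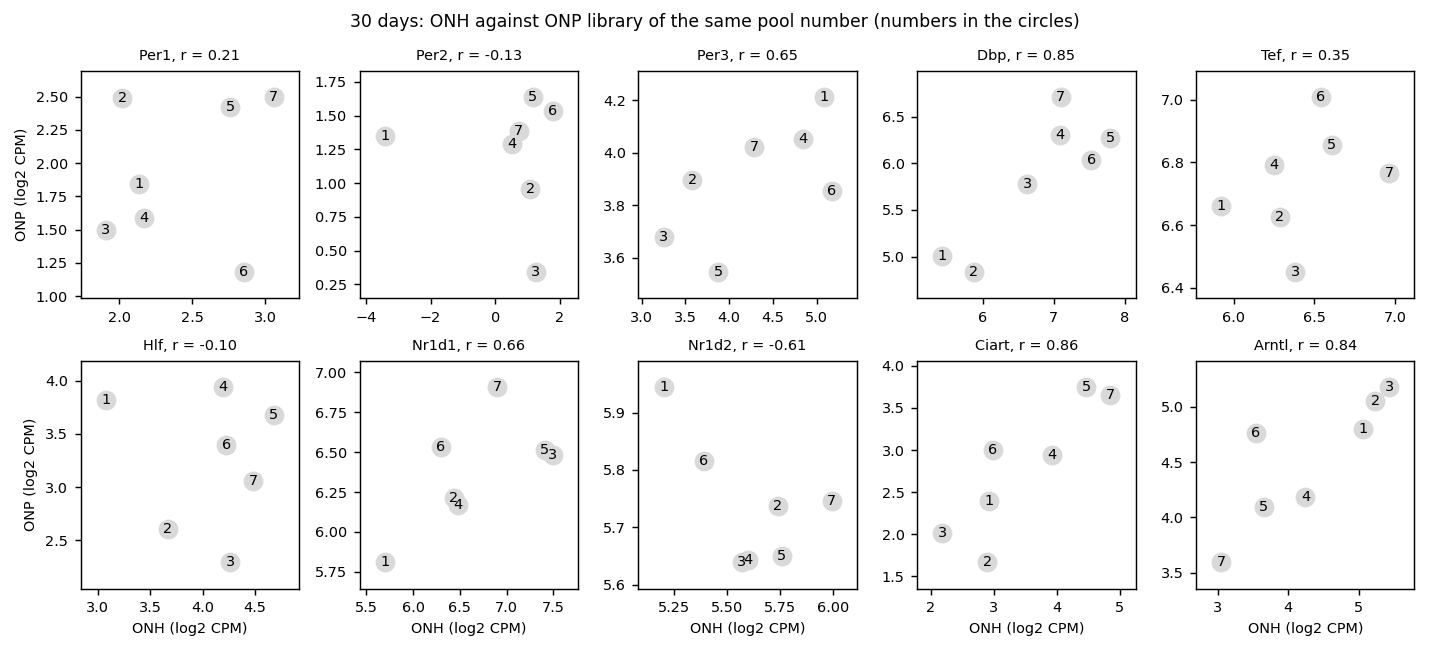
Log2 CPM of each clock gene at 30 days in the ONH library (x axis) and the ONP library (y axis) of the same pool, with the pool number in each circle and Pearson's r over 7 pools above each panel. Pools 1, 2 and 3 stand at the high end for Arntl in both regions (r = 0.84), and the low end for Ciart holds pools 2 and 3.

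Other RNA moved over the pools with these genes. The oligodendrocyte markers in the ONH summed to 32491, 32332 and 40198 CPM in pools 4, 5 and 7, those with the highest Ciart, and to 13143 to 18089 CPM in the other 4. In the ONP they summed to 42154, 36509 and 24874 CPM in pools 1, 2 and 3 and to 52005 to 81701 CPM in the other 4. The microglial markers of the ONH summed to 439, 337 and 980 CPM in pools 4, 5 and 7 and to at most 154 CPM in the others. Those of the ONP reached 1709 and 1767 CPM in pools 5 and 7 and lay at 128 to 569 CPM elsewhere. Over the 7 libraries of a region, the log2 oligodendrocyte sum had r = 0.980 (ONH) and 0.845 (ONP) with Ciart and -0.78 in both regions with Arntl. The log2 microglial sum had r = 0.930 and 0.852 with Ciart and -0.79 and -0.94 with Arntl. The log2 astrocyte sum had r = -0.546 (ONH) and -0.882 (ONP) with Ciart and 0.507 and 0.825 with Arntl. For Dbp, r was 0.560 (ONH) and 0.573 (ONP) with the oligodendrocyte sum and 0.492 and 0.709 with the microglial sum. With the astrocyte sum it was -0.174 and -0.639. These values are a description, with no p. The part of these cells in the values of Arntl, Ciart and Dbp over the pools was not tested.

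A single value per library set Arntl against 5 other members, namely log2 CPM of Arntl minus the mean log2 CPM of Per3, Dbp, Tef, Nr1d1 and Nr1d2. It is a description, with no test. Of these 5, Dbp and Tef opposed Arntl over the libraries, while r with Arntl was -0.32 for Per3, -0.10 for Nr1d1 and 0.00 for Nr1d2 (group means removed). In pools 1, 2 and 3 it was -0.40, -0.35 and -0.44 in the ONH and -0.73, -0.41 and -0.43 in the ONP. In pools 4, 5, 6 and 7 it was -1.81, -2.64, -2.64 and -3.20 in the ONH and -1.61, -1.67, -1.09 and -2.44 in the ONP. The 3 highest and the lowest pools were therefore the same in both regions for this value. With Per1, Per2 and Per3 as the subtracted genes they were not, since pool 6 (2.57) then lay above pool 1 (2.33) in the ONP and pool 6 (0.27) was the lowest in the ONH. At 7 days it was -0.80, -2.92, -2.10 and -2.06 in the ONH and -0.79, -1.35, -1.04 and -1.21 in the ONP.

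The 7 day libraries lay inside the range of the 30 day libraries in both regions, so the days were not separated by this value. The mean was -1.64 ± 1.23 (SD, n = 7) in the ONH at 30 days, -1.97 ± 0.88 (n = 4) in the ONH at 7 days, -1.2 ± 0.75 (n = 7) in the ONP at 30 days and -1.10 ± 0.24 (n = 4) in the ONP at 7 days. The group means differed by less than the largest SD, and the spread within the 30 day ONH group (-3.20 to -0.35) exceeded every difference between group means. The ONP mean was lower at 30 than at 7 days by this value and higher (2.18 against 1.78) with Per1, Per2 and Per3 subtracted. The part of the hour of collection in this spread was not tested, since no hour is given.

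**Figure D4:**
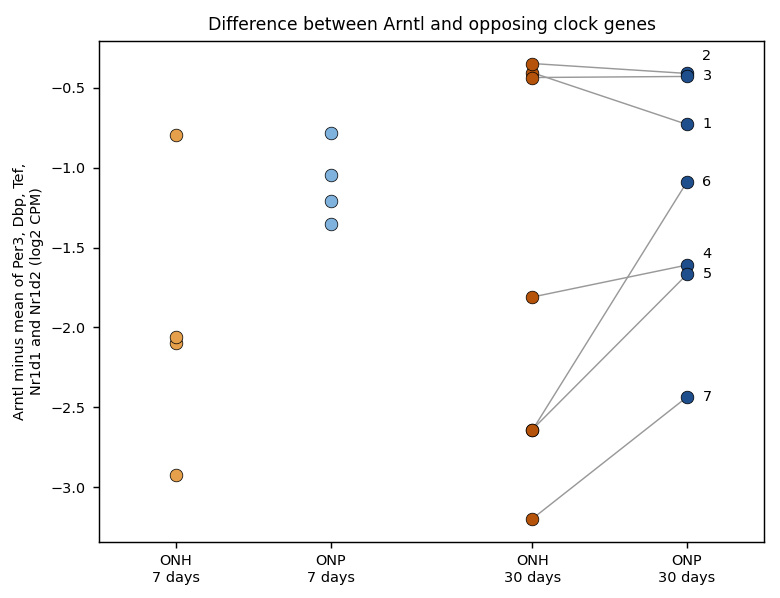
Arntl minus the mean of Per3, Dbp, Tef, Nr1d1 and Nr1d2 (y axis, log2 CPM) in each library of the 4 groups (x axis), with lines that join the ONH and ONP of the same 30 day pool and pool numbers at the right. Pools 1, 2 and 3 lie at -0.73 or above in both regions and pools 4 to 7 at -1.09 or below.

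Over all 22 libraries, with the mean of each group removed, Arntl opposed Ciart (r = -0.75), Dbp (-0.74), Per1 (-0.67) and Tef (-0.60). Per3 had an r of -0.66 with Nr1d1 and -0.02 with Dbp. Tef had r = 0.67 with Ciart, 0.63 with Per2 and 0.59 with Dbp. Libraries that may come from the same mice enter these values as separate points and share composition, so they are given without a p.

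**Figure D5:**
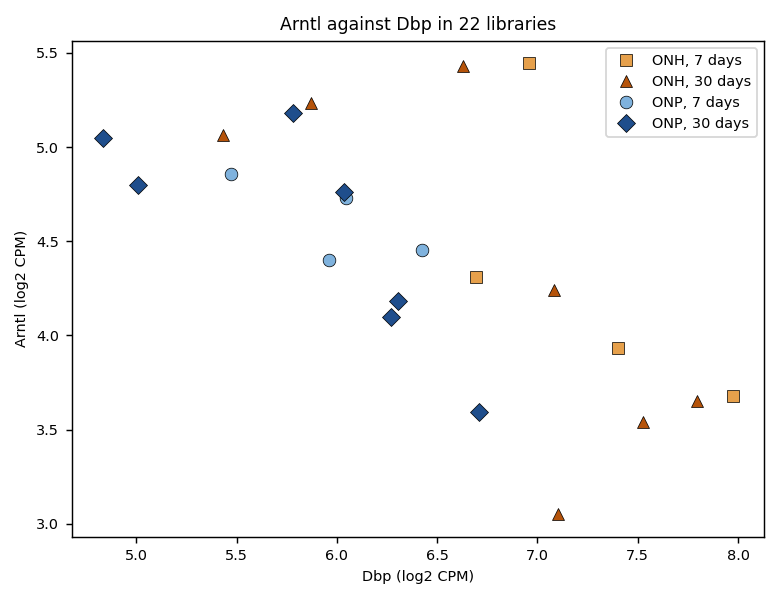
Arntl (y axis, log2 CPM) against Dbp (x axis, log2 CPM) in the 22 libraries, with a symbol for each of the 4 groups. Once the group means were removed, libraries with higher Dbp tended to have lower Arntl (r = -0.74). As plotted this did not hold for every library, since ONH library 1 at 7 days had 124 CPM of Dbp and the highest Arntl (43.5 CPM).

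Among 14230 other genes, the 10 closest to Dbp over the libraries were CAAA01147332.1 (r = 0.881), Map3k10, Rnf220, Fbxw4, Ttc9, March8, Srm, March5, Rxrb and Ube2g2 (0.826), none of which is a clock gene by the lists used here. The 10 farthest included Esyt2 (-0.810), Kdsr (-0.803), Lman1, Tmem33, Smc1a, Sgms1, Cd302, Hsp90b1 and Gpm6a. The glucocorticoid target Klf9 (0.736) and the clock kinase Csnk1e (0.735) ranked 66 and 69 for Dbp. Tef and Ciart, the members closest to Dbp, ranked 442 and 461. Counted from the lowest r for Dbp, Arntl (-0.735) ranked 18. For Arntl the 10 closest were Acsl3 (0.891), D3Ertd254e, Cp, Gramd3, Wdr47, Vcl, F3, Trim9, Ano6 and Slc2a10, and the 10 farthest were Abhd17a (-0.872), Camk1, Tnni1, Pdlim2, Zmym3, Tspan32, Akr1a1, Prr18, Vamp3 and Rasl11b. The repressor Cry2 had r = 0.626 with Arntl and the CLOCK paralogue Npas2 0.584. Counted from the lowest r for Arntl, the cold-responsive gene Rbm3 (-0.759) ranked 67, Ciart (-0.748) 85, Zbtb16 (-0.743) 97 and Dbp (-0.735) 111.

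A list of 20 other clock genes was examined beside the members, and 19 to 20 of them could be tested in each comparison. Between the regions at 30 days 4 were called higher in the ONH and 8 lower, where 21.8% of all genes were called higher and 20% lower. The higher ones were Bhlhe41 (log2FC 0.90, SE 0.27, edgeR adjusted p = 0.0133), a repressor of E-box genes, the receptor Rorb (1.21), Fbxl21 (0.76) and Wee1 (0.46). The lower ones included Cry1 (-0.42) and Cry2 (-0.79), the partners of the PER proteins, Noct (-0.75), a deadenylase-like output gene, Nfil3 (-0.84), a repressor at D-boxes, the kinase Csnk1d (-0.45), Btrc (-0.52) and Usp2 (-0.48). Their edgeR adjusted p ran from 2.97e-05 for Noct to 0.0476 for Wee1. Rorb is also a gene of photoreceptor precursors, and photoreceptor RNA was higher in the ONH as given above, and its part in the Rorb difference was not tested.

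Between the days in the ONP, 2 of 19 were called, both higher at 30 days, among them Bhlhe41 (log2FC 1.2, SE 0.27, edgeR adjusted p = 0.0111). Over all genes in the ONP, 17% were called and 7.8% were called higher. At 7 days 1 of 19 was called between the regions, Bhlhe41 (log2FC 1.76, SE 0.31, edgeR adjusted p = 0.00387), where 13.3% of all genes were called. In the ONH between the days 0 of 20 were called with edgeR or DESeq2, with 3 at an unadjusted p under 0.05. Over all genes in the ONH, edgeR called 0% and DESeq2 2.57%, and 2181 of 15668 had such a p with edgeR. In the interaction 0 of 20 were called, against 0.573% of all genes. An unadjusted p under 0.05 was found there for 2 of the 20 and for 2103 of all 16748 genes. Clock, the partner of ARNTL, was called in no comparison, with a log2FC of 0.07, -0.24, 0.25 and -0.04 in the ONH and the ONP between the days and between the regions at 30 and 7 days. In pool tracking Cry1 had r = 0.894 (exact permutation p = 0.00615, adjusted p = 0.407) and Csnk1e 0.864 (0.0256, 0.506).

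Genes that respond to glucocorticoids, acute signals or temperature were listed too, since Per1 and Per2 also respond to some of these. Of 12 glucocorticoid-responsive genes, 7 were lower in the ONP at 30 than at 7 days, namely Sgk1 (log2FC -2.96), Nfkbia (-1.48), Zbtb16 (-1.42), Errfi1 (-1.29), Cebpd (-0.79), Klf9 (-0.62) and Tsc22d3 (-0.54). The Sgk1 difference had an SE of 0.41 and an edgeR adjusted p of 0.00128. Of the 10 immediate early genes that could be tested, 3 were lower, namely Dusp1 (-1.11), Nr4a1 (-0.74) and Jun (-0.64). Of 8 cold- and heat-responsive genes, Rbm3 (0.95) and Cirbp (0.81) were higher and 5 heat shock genes lower, from Hspa1b (-2.33) to Hsph1 (-0.58). Over all genes tested in the ONP between the days, 9.21% were called lower and 7.8% higher. Each of these ONP comparisons shares its libraries with the lower Per1 and Nr1d1, and the part of such signals in the latter was not tested.

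In the ONH none of these 3 lists had a call between the days with edgeR. An unadjusted p under 0.05 was found for 9 of 12, 6 of 10 and 5 of 8 of their genes, and DESeq2 called 5, 1 and 3. Over all genes, 2181 of 15668 had such a p with edgeR, and DESeq2 called 2.57%. In the interaction 1 gene of the 3 lists was called, Nfkbia (log2FC -1.14, SE 0.25, edgeR adjusted p = 0.0388), where 0.573% of all genes were called. Between the regions at 30 days the glucocorticoid list had 4 higher and 4 lower in the ONH, the immediate early list 3 higher and 2 lower, and the temperature list 6 higher and 0 lower. Over all genes at 30 days, 21.8% were called higher and 20% lower in the ONH. At 7 days the list counts were 1 and 2 for the glucocorticoid list and 2 and 0 for the immediate early list. None of the temperature list was called at 7 days by edgeR or DESeq2. With edgeR 2 of its 8 genes had an unadjusted p under 0.05, as did 4272 of all 14752 genes. Over all genes at 7 days, edgeR called 6.37% higher and 6.9% lower, and DESeq2 called 18.3%. By Pearson's r, the immediate early gene Junb (r = 0.951, exact permutation p = 0.00198, adjusted p = 0.392) and the heat shock gene Hsph1 (r = 0.924, exact permutation p = 0.00933, adjusted p = 0.433) tracked the pool most closely of these 3 lists. Among the marker lists the oligodendrocyte gene Mobp (r = 0.960, exact permutation p = 0.00119, adjusted p = 0.392) and the microglial gene Cd68 (r = 0.924, exact permutation p = 0.00774, adjusted p = 0.429) lay as high. By Spearman's rho, the glucocorticoid-responsive gene Fkbp5 was the closest of the 3 lists (rho = 1, exact permutation p = 0.000397, adjusted p = 0.400, r = 0.772).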

How the data were processed

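Libraries of ribosome-bound mRNA were prepared by the authors from pooled ONH and ONP tissue and sequenced as paired reads. Per the labels, processing used STAR 2.6.1d, Salmon 0.14.2, R 4.1.0 and DESeq2 1.34.0 on mm10. The authors deposited estimated counts (expected counts) per gene from Ensembl 94 transcripts, rounded to whole numbers and not normalized. The authors also deposited log2 values from the variance stabilizing transformation of DESeq2, used here as an alternative only. Counting error limits low genes such as Per2.

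Counts were tested in R 4.3.3 with edgeR 4.0.16 (filterByExpr, TMM, quasi-likelihood, Benjamini-Hochberg over all genes tested, adjusted p under 0.05). Groups came from the labels, and p-values measure the spread between pools. CPM are TMM-scaled, and log2 CPM used a prior count of 2. Pool tracking used all 5040 pairings of 7 pools (two-sided). The study states that both regions were taken from each mouse, and it does not state that the numbers mark the pools. Deviations of same-numbered libraries correlated at 0.0746 to 0.494, and the own number was the highest in 3 of 7 pools. Alternatives were DESeq2 1.42.0, limma 3.58.1 (voom with quality weights, and the deposited log2 values), other scalings and filters, a single fit, the replicate block and leaving out each library. The scripts were tested on simulated data. Genes with positions came from GENCODE M21 (GRCm38).

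The members, and the lists of other clock, glucocorticoid-responsive, immediate early, cold- and heat-responsive and cell type marker genes, were chosen with earlier results of these data known. Named are all members, each listed gene called in a comparison of its list, otherwise those with the smallest p, and the 10 nearest and 10 farthest genes of Dbp and Arntl, except 2 genes that are not reported here. Clock, Csnk1e, Junb, Hsph1, Fkbp5, Mobp, Cd68 and the listed genes given with a rank were picked after their values were seen.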

Additional observations from a re-analysis of the deposited data

Results flagged for a closer look

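Each member, as log2 CPM, and the value of Arntl minus 5 other members were examined in the 4 groups for a library far from the rest. By Dixon's test 3 of 44 groups were marked, where chance marks about 1 in 20. The marks rest on log2 CPM, while the levels below are CPM. Per2 in the ONH at 30 days was at 0 CPM in pool 1, against 1.3 to 3.35 CPM in the other 6 pools. Its log2 CPM of -3.42 in pool 1 was set by the prior count. Per3 in the ONP at 7 days was at 4.46 CPM in library 6, against 10.7 to 11 CPM in the other 3. Nr1d2 in the ONH at 7 days was at 27.5 CPM in library 5, against 75.8 to 93.0 CPM in the other 3.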

How the results depend on the processing

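The number of members called was 0 between the days in the ONH and 0 in the interaction under every alternative run with all libraries. In the ONP between the days the count of 2 became 4 with limma-voom, 1 with no filter on low counts and 1 with all 4 groups in a single fit. Between the regions at 30 days it became 1 on the deposited log2 values and 1 with no filter on low counts. When each library was left out in turn, the counts ranged from 0 to 1 (ONH between the days), 1 to 4 (ONP between the days), 0 to 3 (regions at 30 days), 1 to 4 (regions at 7 days) and 0 to 1 (interaction), and the members with an unadjusted exact p under 0.05 in pool tracking from 1 to 3. Without pool 1, 2 or 3, Ciart was the 1 member left in pool tracking. Without ONH library 5 at 7 days, Nr1d2 gave the single calls in the ONH and in the interaction, and without ONP pool 5 the ONP count was 4. The causes were not tested.

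With the replicate block at 30 days the count was 3 (Dbp, Hlf and Ciart), and in the interaction it was 0 (limma-voom, correlation of same-pool libraries 0.196), and the block changed no other call of a member. No paired fit was made at 7 days. The numbers of the table (ONH 1, 3, 5 and 6, ONP 1, 2, 5 and 6) are not the 1 to 4 of the labels, so its columns were tied to a group and to no labelled replicate, although 1, 5 and 6 occur in both regions. Between the days no number was paired either.

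Signs changed only for members whose value was within about 1 SE of 0. Between the days in the ONH, Per3 was -0.0025 with limma-voom and -0.00052 on the deposited log2 values, and Arntl was -0.13 and -0.055 there, -0.026 with library size only and -0.0037 with at least 10 counts in every sample. With library size only, Dbp was 0.047 and Arntl 0.083 in the ONP between the days, Arntl 0.044 between the regions at 7 days, and Ciart 0.079 and Arntl 0.11 in the interaction. In the interaction Ciart was 0.046 on the deposited log2 values and Arntl 0.098 with limma-voom, and Spearman's rho of Per2 over pools was 0.143. Leaving out single libraries gave -0.21 to 0.55 (Arntl) and -0.072 to 0.41 (Per3) in the ONH, -0.15 to 0.084 (Arntl) and -0.22 to 0.13 (Dbp) in the ONP, -0.25 to 0.081 (Arntl, regions at 30 days), -0.62 to 0.096 (Arntl, regions at 7 days), -0.55 to 0.18 (Arntl), -0.25 to 0.25 (Ciart) and -0.081 to 0.17 (Tef) in the interaction, and r of -0.30 to 0.43 (Hlf), -0.11 to 0.65 (Per1) and -0.27 to 0.10 (Per2) in pool tracking.

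Scaling by library size only raised the median log2FC of all genes by 0.11 in the ONP between the days, 0.11 between the regions at 7 days and 0.15 in the interaction, and the higher and lower calls became 1945 and 972 (from 1209 and 1426), 1408 and 845 (from 940 and 1018) and 36 and 32 (from 26 and 70). With a single fit the calls over all genes were 296 in the ONH between the days, 1207 in the ONP (from 2635) and 3792 between the regions at 7 days (from 1958). DESeq2 gave 448, 3181 (7 days) and 409 (interaction, from 96). In the interaction limma-voom gave 55, no filter on low counts 49 and the block 161. When each library was left out, the calls over all genes were 0 to 183 in the ONH between the days (183 without 7 day library 5, at most 1 otherwise), 1440 to 3233 in the ONP (1440 without 7 day library 6), 5679 to 6424 between the regions at 30 days, 1118 to 2384 at 7 days (1157, 1179 and 1118 without ONP library 2, 5 and 6) and 22 to 322 in the interaction (322 without ONH 7 day library 5), where 14 of 22 fits moved the count by over 1.5 times. The number of libraries limits these comparisons, as does depth for Per2, at 0 to 8.73 CPM.

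Arntl minus the mean of Per1, Per2 and Per3 in place of the 5 genes above is another quantity, at 1.93 and 1.06 in the ONH at 30 and 7 days and 2.18 and 1.78 in the ONP.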
